A study of Homo sapiens with 9 samples.

Results

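The 9 genes described here are NFE2L2, KEAP1, NQO1, HMOX1, TXNRD1, SRXN1, OSGIN1, PGD and AKR1B10, taken by symbol from the 22587 genes of the deposited table, and all 9 were present. The 9 libraries are total RNA of HepG2, an established human line from a liver tumor, cultured in high-glucose medium. In 3 libraries the cells had Gln added (normal medium), in 3 they had been deprived of Gln for 12 h and in 3 for 24 h. All cultures shared the same cell line, and no gene was targeted in them. The labels give GlutaMAX, a stable dipeptide source of Gln, as the treatment of the cultures with Gln added, while the treatment protocol and the methods place it in the Gln-free medium. The labels do not say whether the libraries of a group came from separate cultures, so the p-values below measure the spread between these libraries, which may be technical.

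NFE2L2 encodes NRF2, the transcription factor that switches on antioxidant and detoxifying genes. Under resting conditions KEAP1 binds NRF2 and hands it to a CUL3 ubiquitin ligase for degradation. Oxidants and electrophiles modify cysteines of KEAP1, NRF2 then accumulates, pairs with a small MAF protein and binds antioxidant response elements in its target genes. Much of this control acts on the NRF2 protein, which RNA-seq does not measure. Some of the targets spend or supply NADPH: NQO1, TXNRD1 and AKR1B10 consume it, and PGD is an enzyme of the pentose phosphate pathway that makes it.

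An antioxidant response element has the core TGACNNNGC, and the variant TGACTCAGC also holds the AP-1 site TGANTCA. The core was searched on both strands of the RefSeq promoter windows (GRCh38.p14, 250 bases before to 50 after each start site), where 7 of the 9 genes had an entry. It occurred in windows of 3 of these 7 genes, TXNRD1, KEAP1 and PGD, and in those of 16.1% of all 27305 genes with an entry (19.6% of the genes tested below). The stricter TGACTCAGC was searched over 5000 bases before each start site in GRCh38 and occurred upstream of 1 of the 7 genes, NQO1, against 7.27% of all genes with an entry. TXNRD1 had 3 matches, KEAP1 2, and PGD and NQO1 1 each. For each start site with a match 1 is printed, to place promoter sequence beside the values, with the 9 bases of the core in capitals. The strand of the gene is printed 5′ to 3′, so where the core lies on the other strand its reverse complement is seen. A match describes letters in a window and does not show binding.
NQO1, chr16:69726997-69727025, minus strand, core beginning 455 bases before the start site: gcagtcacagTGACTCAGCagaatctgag
TXNRD1, chr12:104215670-104215698, plus strand, core beginning 99 bases before a start site: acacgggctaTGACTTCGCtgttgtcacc
TXNRD1, chr12:104286920-104286948, plus strand, core on the other strand before a second start site: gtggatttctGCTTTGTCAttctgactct
KEAP1, chr19:10502784-10502812, minus strand, core on the other strand: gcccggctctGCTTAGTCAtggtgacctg
PGD, chr1:10398853-10398881, plus strand, core on the other strand: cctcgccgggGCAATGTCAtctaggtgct
NFE2L2, SRXN1 and OSGIN1 had no match in either search, which says only that these letters are not in these windows. HMOX1 and AKR1B10 had no promoter entry.

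Levels are the deposited FPKM, fragments scaled to the length of the gene and to the depth of the library. Whole fragments could be recovered from the steps of the values, and they gave between 29618771 and 36258403 fragments on genes per library, the fewest in replicate 1 of the 12 h group. The members rested on at least 1435 fragments (OSGIN1) and up to 61955 (NQO1) per library. Hepatocyte markers (ALB, AFP, SERPINA1, HNF4A and 5 others) were all above 1 FPKM in every library, and their summed level was 7394 to 7494 FPKM in the Gln-added libraries, 6486 to 6553 after 12 h and 6271 to 6593 after 24 h. Of 9 markers of leukocytes, fibroblasts and endothelium 7 were in the table. Their sum, nearly all of it CD68, was 37.9 to 38.2 FPKM in the Gln-added libraries, 30.2 to 33.2 after 12 h and 23.0 to 27.7 after 24 h, while COL1A1 and COL1A2 were at 0 in some libraries and had at most 3 fragments in any. Both sums were lower under deprivation, and their part in the results below was not tested. In bulk RNA a change in the share of cells and a change of RNA per cell cannot be told apart.

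With Gln added, the 9 genes were abundant in HepG2 cells: by mean FPKM NQO1 ranked 82nd of the 22587 genes, AKR1B10 225th and PGD 235th, and the least abundant, OSGIN1, was above 87.6% of all genes. The order of levels per length was NQO1 (560.9 FPKM), AKR1B10 (197.6), PGD (191.6), TXNRD1 (146.1), SRXN1 (108.3), NFE2L2 (88.0), HMOX1 (61.0), KEAP1 (24.8) and OSGIN1 (21.5). Each neighbouring pair in this order was separate, with every library of the higher gene above every library of the lower gene. At 12 h PGD had passed from the third to the fifth place and OSGIN1 stood above KEAP1. At 24 h 2 neighbouring pairs overlapped between libraries, TXNRD1 with SRXN1 and OSGIN1 with KEAP1. Together the 9 genes held 0.358% to 0.366% of all FPKM in the Gln-added libraries, 0.473% to 0.479% after 12 h and 0.400% to 0.415% after 24 h.

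At 12 h of Gln deprivation 7 of the 9 genes were higher than with Gln added and 2 were lower, all 9 with an adjusted p under 0.05 from limma. OSGIN1 and SRXN1 rose most, to 1.95 and 1.89 times the mean with Gln added, followed by TXNRD1 (1.57 times), NFE2L2 (1.43), AKR1B10 (1.35), NQO1 (1.21) and KEAP1 (1.19). HMOX1 and PGD fell, to 0.833 and 0.862 times. The test was limma on log2(FPKM + 0.1) with Benjamini-Hochberg adjustment over the 11880 genes whose mean reached 0.5 FPKM, all 3 groups in 1 fit, and all 9 genes passed that filter in every group. Of all genes tested 60.2% reached the same threshold at 12 h, 29.1% higher and 31.0% lower, so a call alone is common in these data. The median log2 fold change of the 9 genes was 0.43, beside -0.02 for all genes tested, where rises and falls offset each other. Without regard to direction, the median size was 0.43 for the 9 genes and 0.25 for all genes tested.

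At 24 h 6 of the 9 genes were still higher than with Gln added, 2 were lower and AKR1B10 did not pass (64.7% of all genes tested passed, 33.0% higher and 31.7% lower). The median log2 fold change was 0.21, beside 0.01 for all genes tested, and the median size without regard to direction was 0.41, beside 0.28. Between 12 h and 24 h 7 of the 9 genes fell with an adjusted p under 0.05 from limma and none rose. In this comparison 20.1% of all genes tested passed, 9.57% of those tested as higher and 10.5% as lower at 24 h, and the median difference was -0.35 for the 9 genes and 0.02 for all. NQO1, TXNRD1, SRXN1 and OSGIN1 were higher than with Gln added at both times and lower at 24 h than at 12 h, a combination found in 1.03% of the genes tested. The 9 genes were chosen with earlier results of these data known, so this share is given as a description. NQO1 belongs to the combination through a difference between the times that is close to the threshold. Both times share the same 3 Gln-added libraries as reference, so their fold changes are not independent. HMOX1 and PGD were lower at both times and lower again at 24 h, as were 5.38% of the genes tested.

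**Figure D1:**
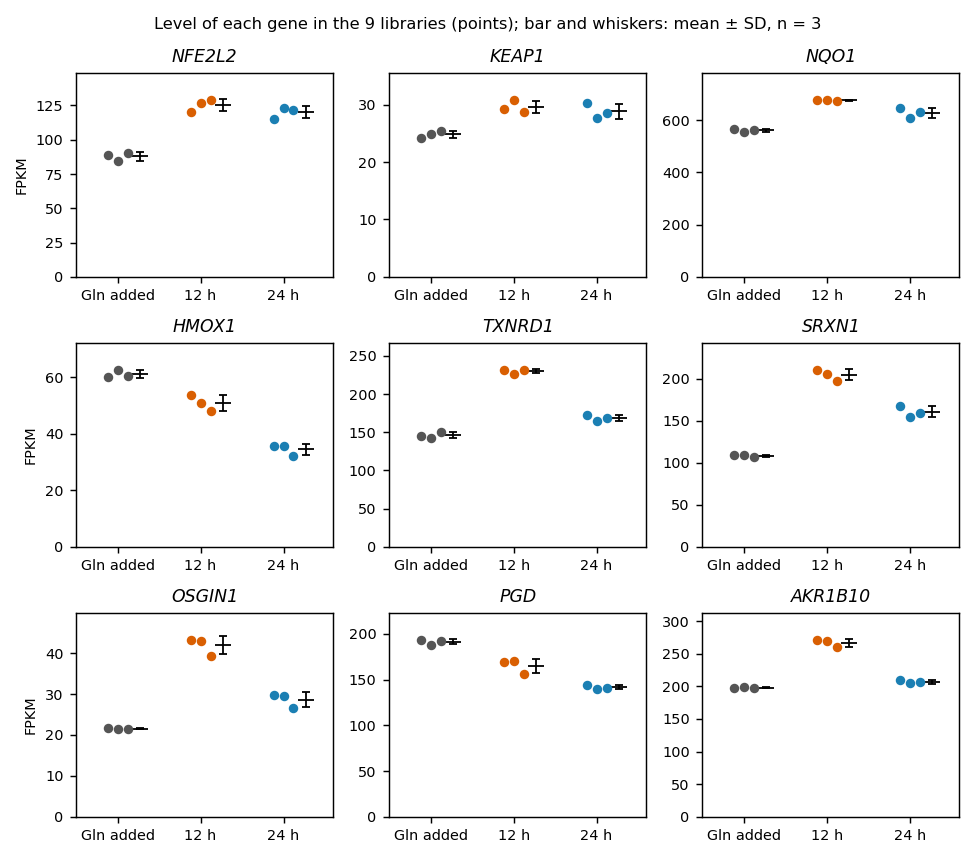
FPKM of each of the 9 genes (vertical axes from 0) in the 3 libraries with Gln added, the 3 at 12 h and the 3 at 24 h of Gln deprivation; points are libraries, and the bar with whiskers is the mean ± SD. OSGIN1, SRXN1, TXNRD1 and AKR1B10 peak at 12 h, NFE2L2 and KEAP1 stay up at 24 h, and HMOX1 and PGD step down at each time.

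The regulators come first. NFE2L2 (ENSG00000116044) occupies 177218667 to 177392756 of chromosome 2 on the minus strand (GRCh38 coordinates and GENCODE v44 gene models here and below). Its libraries were at 89.1, 84.4 and 90.5 FPKM with Gln added, at 120.5, 127.0 and 129.1 at 12 h, and at 115.5, 123.3 and 121.8 at 24 h. All 6 Gln-deprived libraries exceeded the 3 others, and the 12 h and 24 h libraries overlapped. In limma NFE2L2 changed by 0.51 ± 0.042 log2 units after 12 h (SE, adjusted p = 2.33e-06) and 0.45 after 24 h (adjusted p = 4.44e-06 from limma). The difference between the times was -0.06, with a 95% confidence interval of -0.16 to 0.03. Of its 14975 exonic bases 24.8% are also exonic in opposite-strand genes and 13.6% in an unnamed gene on its own strand, whereas the FPKM correspond to a gene length of 3180 bases. The methods call the libraries strand-specific and the labels name another kit. Whether the counting used strand is not given in the sources used here, and without it reads of opposite-strand genes cannot be told apart.

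KEAP1 (ENSG00000079999), the inhibitor, lies on chromosome 19 from 10486125 to 10503558 on the minus strand, with no overlapping exon of another gene. It was at 24.2, 24.9 and 25.5 FPKM with Gln added, at 29.3, 30.9 and 28.8 at 12 h and at 30.3, 27.6 and 28.6 at 24 h. All 6 Gln-deprived libraries were above the 3 with Gln added. The rise was small, 0.25 ± 0.045 log2 units after 12 h (SE, adjusted p = 0.000628 from limma) and 0.21 after 24 h (adjusted p = 0.00169). Its size exceeded that of 49.9% of the genes tested at the first time and 39.5% at the second. Between the times KEAP1 differed by -0.04 (95% confidence interval -0.14 to 0.06). The ratio of NFE2L2 to KEAP1 FPKM was 3.54 ± 0.15 in the Gln-added libraries, 4.24 ± 0.21 after 12 h and 4.18 ± 0.33 after 24 h (SD over 3 libraries). Each Gln-deprived library had a higher ratio than each of the other 3 (two-sided exact permutation test, p = 0.1 at each time, the smallest p that 3 libraries against 3 allow).

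Among the target genes SRXN1 encodes sulfiredoxin, which restores overoxidised peroxiredoxins. It stood at 109.2, 109.2 and 106.6 FPKM with Gln added, at 211.0, 206.2 and 198.0 at 12 h and at 167.8, 154.6 and 159.7 at 24 h. The 3 groups did not overlap. Its rise of 0.92 ± 0.039 log2 units after 12 h (SE, adjusted p = 1.76e-08 from limma) was larger in size than in 94.7% of the genes tested, and at 24 h it was 0.57 (adjusted p = 3.88e-07 from limma). From 12 h to 24 h SRXN1 fell by 0.35 on the log2 scale (adjusted p = 0.000163 from limma). SRXN1 (ENSG00000271303) lies on chromosome 20 from 646615 to 653200 on the minus strand; exons of an unnamed GENCODE gene on the same strand cover 90.7% of its exonic bases, so its level is uncertain where that gene was counted apart.

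TXNRD1 (ENSG00000198431, chromosome 12 from 104215779 to 104350307, plus strand) encodes the cytosolic thioredoxin reductase, which uses NADPH to keep thioredoxin reduced. It was at 145.1, 142.5 and 150.8 FPKM with Gln added, at 231.7, 226.7 and 231.1 at 12 h and at 172.7, 164.1 and 169.0 at 24 h. The groups did not overlap, and the 24 h libraries lay much nearer to Gln added than to 12 h. For TXNRD1 limma gave 0.65 ± 0.034 log2 units after 12 h (SE, adjusted p = 7.91e-08) and 0.21 after 24 h (adjusted p = 0.000302 from limma), so that 31.6% of the 12 h change was present at 24 h. The fall between the times, 0.45 on the log2 scale (adjusted p = 1.65e-05 from limma), exceeded in size that of 93.6% of the genes tested.

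NQO1 (ENSG00000181019, chromosome 16 from 69706996 to 69726668, minus strand), the quinone reductase that is the classical NRF2 target and whose antioxidant response element core is printed above, was the most abundant of the 9 genes. Its libraries were at 566.2, 554.9 and 561.7 FPKM with Gln added, 676.1, 677.7 and 674.1 at 12 h and 647.3, 607.7 and 629.8 at 24 h. The 12 h libraries were nearly identical and above all others. The limma estimate for NQO1 was 0.27 ± 0.032 log2 units after 12 h (SE, adjusted p = 3.74e-05) and 0.16 after 24 h (adjusted p = 0.00105 from limma). The median size of change over all genes tested was 0.25 at 12 h and 0.28 at 24 h, so these changes were not large. The difference between the times, -0.11 (adjusted p = 0.041 from limma), was close to the threshold and lost under several alternatives: it no longer passed with FPKM rescaled to the same total (adjusted p = 0.0586 from limma) or with 8 of the 9 libraries left out in turn (adjusted p up to 0.107 from limma, without replicate 2 of the 12 h group). An unnamed opposite-strand gene shares 19.4% of the exonic bases of NQO1.

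AKR1B10 (ENSG00000198074, chromosome 7 from 134527567 to 134541412, plus strand) is an NADPH-dependent aldo-keto reductase of aldehydes that is often high in liver tumors. It was at 196.8, 198.7 and 197.2 FPKM with Gln added, at 271.3, 269.8 and 260.0 at 12 h and back at 210.2, 204.4 and 206.3 at 24 h. The 12 h libraries stood apart from the other 6. Limma put AKR1B10 at 0.43 ± 0.030 log2 units after 12 h (SE, adjusted p = 6.70e-07) and 0.07 after 24 h (95% confidence interval 0.0003 to 0.13, adjusted p = 0.0724 from limma). With FPKM rescaled to the same total the 24 h value was 0.11 and passed (adjusted p = 0.00369 from limma). From 12 h to 24 h AKR1B10 fell by 0.37 on the log2 scale (adjusted p = 2.56e-05 from limma). Its close paralog AKR1B15 was listed at 0.311 to 0.577 FPKM over the 9 libraries.

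OSGIN1 (ENSG00000140961, chromosome 16 from 83931311 to 83966332, plus strand), an oxidative stress-induced growth inhibitor, was at 21.7, 21.4 and 21.5 FPKM with Gln added. It reached 43.3, 43.1 and 39.4 FPKM at 12 h and was at 29.9, 29.5 and 26.6 at 24 h, with no overlap between groups. OSGIN1 rose by 0.96 ± 0.052 log2 units after 12 h (SE, adjusted p = 1.15e-07 from limma), which was larger in size than in 95.4% of the genes tested. At 24 h it was 0.41 (adjusted p = 4.77e-05 from limma), and the difference between the times was -0.55 (adjusted p = 6.68e-05 from limma). Exons of its neighbour MLYCD on the same strand cover 8.22% of its exonic bases.

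HMOX1 and PGD went the other way. HMOX1 (ENSG00000100292, chromosome 22 from 35380361 to 35394214, plus strand) encodes heme oxygenase, which opens the heme ring and releases iron, and it is repressed by BACH1 as well as activated by NRF2. Its libraries were at 60.0, 62.6 and 60.4 FPKM with Gln added, at 53.6, 50.9 and 47.9 at 12 h and at 35.6, 35.7 and 32.2 at 24 h. The level stepped down at each time with no overlap between groups. HMOX1 had a limma estimate of -0.26 ± 0.052 log2 units after 12 h (SE, adjusted p = 0.00126) and -0.82 after 24 h (adjusted p = 2.29e-07 from limma), the second larger in size than in 90.2% of the genes tested. From 12 h to 24 h HMOX1 fell by 0.56 on the log2 scale (adjusted p = 6.01e-05 from limma), more than 96.4% of the genes tested changed in either direction.

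PGD (ENSG00000142657, chromosome 1 from 10398592 to 10420511, plus strand) encodes 6-phosphogluconate dehydrogenase, an NADPH-producing step of the pentose phosphate pathway. It was at 193.7, 188.5 and 192.5 FPKM with Gln added, at 169.0, 169.9 and 156.4 at 12 h and at 144.1, 139.9 and 140.9 at 24 h. Again the groups did not overlap. The estimate from limma for PGD was -0.22 ± 0.037 log2 units after 12 h (SE, adjusted p = 0.000547) and -0.44 after 24 h (adjusted p = 2.31e-06 from limma), and the difference between the times was -0.22 (adjusted p = 0.00249 from limma). Over all genes tested the median size of change was 0.25 at 12 h, above that of PGD, and 0.28 at 24 h. No exon of another gene overlaps HMOX1, PGD, TXNRD1 or AKR1B10 in GENCODE v44.

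**Figure D2:**
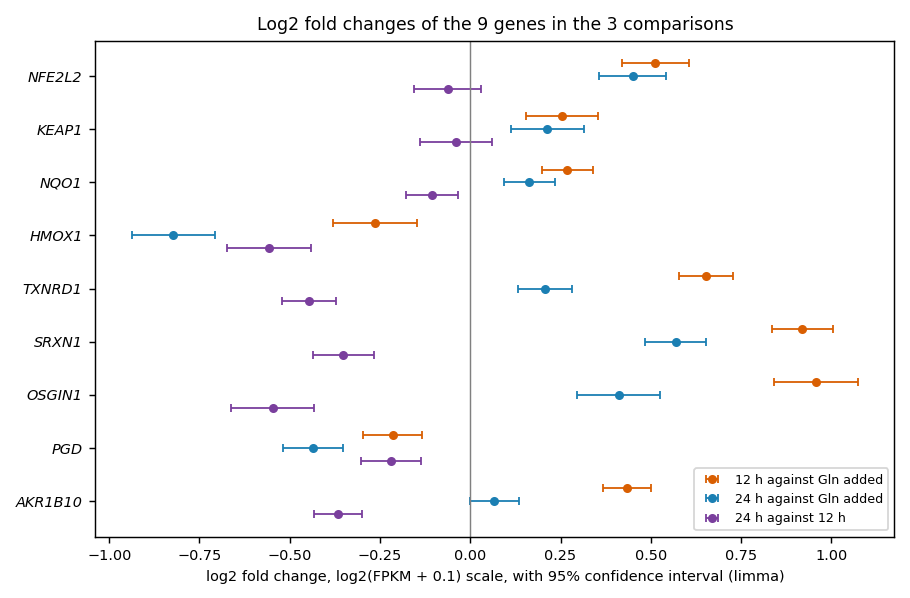
Log2 fold change of each gene on the log2(FPKM + 0.1) scale (horizontal axis) with its 95% confidence interval from limma, for 12 h against Gln added (orange), 24 h against Gln added (blue) and 24 h against 12 h (purple), 3 libraries per group. The purple interval includes 0 for NFE2L2 and KEAP1 only, and the blue interval of AKR1B10 ends near 0.

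Each of the 9 genes was separate between Gln added and 12 h and between Gln added and 24 h, as were 67.2% of all genes tested at 12 h (32.8% higher, 34.4% lower) and 69.9% at 24 h (35.7% higher, 34.1% lower). Between 12 h and 24 h 7 of the 9 were separate, as were 34.4% of all genes (17.5% higher and 16.9% lower at 24 h). In each of these 25 comparisons the two-sided exact permutation test gave p = 0.1, the smallest it can give with 3 libraries against 3. Part of the 12 h change remained at 24 h to different degrees, from 87.7% of the log2 fold change for NFE2L2 and 84.2% for KEAP1 to 61.8% for SRXN1, 60.6% for NQO1, 42.9% for OSGIN1, 31.6% for TXNRD1 and 15.4% for AKR1B10. Whether these shares differ from each other was not tested.

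The other genes of the pathway were taken from 8 lists by role, 89 genes of which 83 passed the filter. Their counts, and those of each list below, stand beside the shares of all genes tested given above: 29.1% higher and 31.0% lower at 12 h, 33.0% and 31.7% at 24 h, and 9.57% and 10.5% between the times. Against Gln added 30 rose and 35 fell by 12 h, and 25 rose and 42 fell by 24 h, and between the times 5 were higher and 25 lower at 24 h. The medians over the 83 genes were -0.03, -0.13 and -0.08 on the log2 scale. FPKM rescaled to the same total gave 29 higher and 39 lower at 24 h, the largest shift in this split from a scaling.

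Genes listed as partners, rivals and turnover factors of NRF2 were mostly higher at both times, 10 of 13 tested at each, with 2 lower. The small MAF genes, whose proteins pair with NRF2 on DNA, rose together in RNA: on the log2 scale MAFF was up by 2.03 after 12 h and 2.21 after 24 h, MAFG by 1.35 and 1.19, and MAFK by 0.88 and 1.02 (largest adjusted p = 3.17e-07 from limma). MAFF was low with Gln added, at a mean of 1.96 FPKM. SQSTM1, which encodes the autophagy receptor p62 that binds KEAP1, went from 145.4 FPKM to 281.7 after 12 h and 289.5 after 24 h, with log2 fold changes of 0.95 and 0.99. BACH1, the repressor that competes with NRF2 at antioxidant response elements, rose by 0.37 and 0.51 (adjusted p = 0.000351 and 3.01e-05 from limma). CUL3 rose by 0.22 and 0.24, while RBX1, the RING subunit of the same ligase, fell by 0.68 and 0.69. Of these 13 genes only MAFG passed the test between the times (-0.16, adjusted p = 0.0153 from limma). That call did not hold with each library left out in turn (adjusted p up to 0.0612 from limma).

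Genes listed under NADPH production divided. The list also holds genes that do not themselves make NADPH, such as TALDO1 and NADK2. Its counts are thus not of NADPH-making enzymes alone. Of 16 tested, 2 were higher and 9 lower at 12 h, and 3 were higher and 10 lower at 24 h. TALDO1 fell by 0.19 on the log2 scale after 12 h and 0.45 after 24 h. IDH2, the mitochondrial NADP-dependent isocitrate dehydrogenase, fell by 0.53 and 1.07 and NADK2, the mitochondrial NAD kinase, by 0.63 and 0.70. The mitochondrial folate enzymes moved up: MTHFD2 by 1.69 log2 units after 12 h and 1.52 after 24 h, and ALDH1L2 by 1.56 and 1.86, though ALDH1L2 was low, at 0.480 FPKM with Gln added and 2.01 at 24 h. With a pseudocount of 1 the ALDH1L2 values were 0.82 and 1.02, and with voom 1.75 and 2.06.

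In the thioredoxin and peroxiredoxin list 8 of 11 genes were lower at 12 h and 7 at 24 h, with 1 higher at each time. TXN, the substrate of TXNRD1, was lower by 0.18 at 12 h and 0.42 at 24 h (adjusted p = 0.0153 and 5.80e-05 from limma), PRDX2 by 0.62 and 0.93, and PRDX6 by 0.81 and 0.89. The gene that rose was TXNIP, the inhibitor of thioredoxin, which averaged 10.7 FPKM in the Gln-added libraries and 39.7 after 24 h (log2 fold changes 1.75 and 1.89). TXNRD1 and SRXN1 thus rose while TXN and the peroxiredoxins PRDX2 and PRDX6 fell.

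Among other carbonyl and quinone reductases 4 of 12 were higher and 7 lower at 12 h, and 1 was higher and 8 lower at 24 h. AKR1C2 rose by 0.35 after 12 h and was below Gln added after 24 h, at -0.12 (adjusted p = 0.0251 from limma), a difference between the times of -0.47. AKR1C3 rose by 0.26 and 0.14, and AKR7A2 fell by 0.73 and 0.87. The AKR1C genes are similar in sequence to different degrees, so reads may have been split among them and their levels are uncertain. The 24 h calls of AKR1C2 and AKR1C3 were near the threshold and did not hold with a single library left out (AKR1C2 was at -0.09 without replicate 2 of the 24 h group and AKR1C3 at 0.08 without replicate 1 of it), nor did that of TXN at 12 h (-0.15 without replicate 1 of Gln added).

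In heme and iron handling, where the share that passed was 66.7% at 12 h and thus near that of all genes tested, 2 of 9 genes were higher and 4 lower at 12 h, and 1 was higher and 6 lower at 24 h. BLVRB, biliverdin reductase B, fell by 0.37 and 0.79, and TFRC, the transferrin receptor, by 0.49 and 0.65. SLC48A1, a heme transporter, rose by 0.55 log2 units after 12 h and was at 0.22 after 24 h, where it did not pass (adjusted p = 0.0742 from limma). HMOX2, the constitutive heme oxygenase, averaged 15.3 FPKM in the Gln-added libraries, 15.6 after 12 h and 16.8 after 24 h, and passed at 24 h only (log2 fold change 0.14, adjusted p = 0.0275 from limma).

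The glutathione arm had 6 of 11 genes higher and 3 lower at 12 h, and 4 higher and 4 lower at 24 h. The 24 h counts were near the shares of all genes tested, 33.0% higher and 31.7% lower. SLC7A11, the cystine importer, rose by 1.66 and 1.88 on the log2 scale. GCLC, the catalytic subunit of glutamate-cysteine ligase, rose by 0.69 and 0.45, and its modifier GCLM was at 0.28 after 12 h (adjusted p = 0.0213 from limma) and -0.13 after 24 h (adjusted p = 0.238 from limma). GSS, which completes glutathione, fell by 0.37 and 0.50. Of the scavengers, SOD2 rose by 0.19 and 0.72 and CAT fell by 0.65 and 0.99. Among the conjugation and export genes 4 of 8 were higher and none lower at 12 h, and 4 were higher and 3 lower at 24 h, led by ABCC2 (0.43 at 12 h) and ABCC3 (0.40 at 24 h), with ABCC4 at -0.27 at 24 h. Of the 83 genes, 3 (MAFG, MTHFD2 and GCLC) shared the combination of NQO1, TXNRD1, SRXN1 and OSGIN1, and 11 shared that of HMOX1 and PGD, among them TXN, PRDX2, CAT, BLVRB, TALDO1 and IDH2. For MAFG and MTHFD2 the call between the times did not hold with each library left out in turn.

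**Figure D3:**
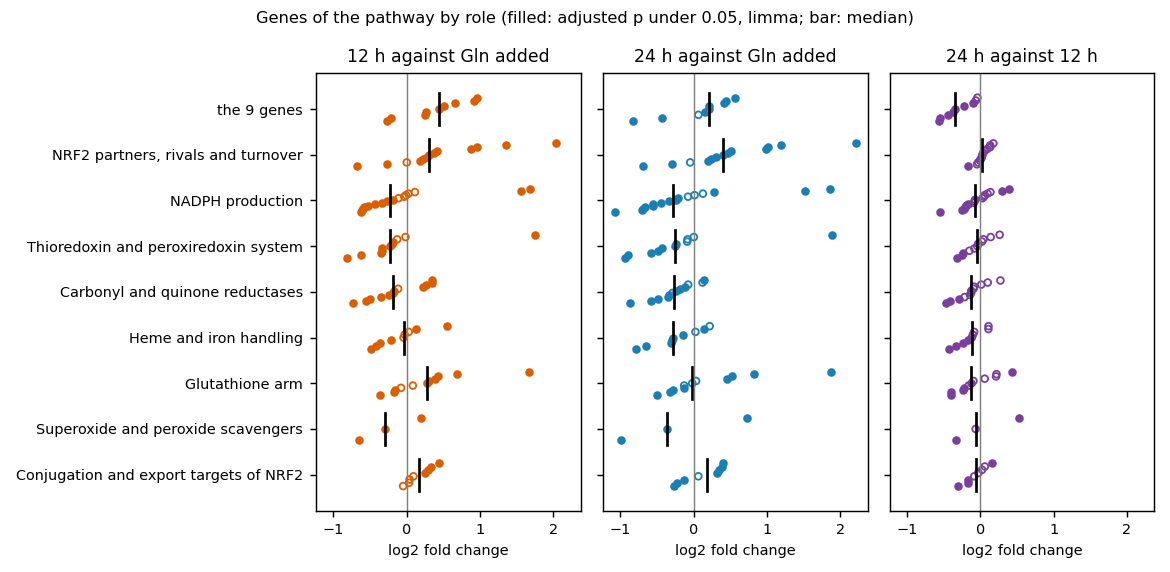
Log2 fold change (horizontal axis, log2(FPKM + 0.1) scale) of the 9 genes and of the 83 other tested genes by role, in 3 panels for the 3 comparisons; filled points have an adjusted p under 0.05 from limma, open points do not, and the black bar is the median of a list. Against Gln added, the bars of the list of NRF2 partners, rivals and turnover and of conjugation and export are above 0 at both times. Those of NADPH production, the thioredoxin system, carbonyl and quinone reductases, heme and iron handling and the scavengers are below 0 at both times.

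For each of the 9 genes, the gene with the most alike pattern was found by Pearson's r of log2(FPKM + 0.1) over the 9 libraries among 11871 others. The Gln-added libraries differed from both Gln-deprived groups in most genes tested. Each r is also the highest of 11871 over only 9 libraries, so r is given as a description. GSR, glutathione reductase, was the closest to AKR1B10 (r = 0.992), averaging 138.6 FPKM in the Gln-added libraries, 186.9 after 12 h and 142.0 after 24 h. SLC2A8 was the closest to TXNRD1 (r = 0.992), MAP4K4 to OSGIN1 (r = 0.992), AJUBA to SRXN1 (r = 0.997) and RETSAT to NQO1 (r = 0.995). For the falling genes these were TAGLN2 for HMOX1 (r = 0.991) and RNPEP for PGD (r = 0.994), and for the regulators UGT2B4 for NFE2L2 (r = 0.998) and ARMC5 for KEAP1 (r = 0.989). Genes with r above 0.95 made up 5.03% of the others for NFE2L2 but 0.270% for AKR1B10 and 0.345% for TXNRD1.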

How the data were processed

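Total RNA of HepG2 cells was sequenced in 9 libraries. According to the methods the authors aligned reads to GRCh38 with STAR; the submitters' processing notes also name HTSeq and R 3.2.0. Per gene, the authors deposited FPKM in 1 column a library; the annotation and strand setting are not given in the sources used here. Column names matched the labels. FPKM are not counts, so limma 3.58.1 in R 4.3.3 (eBayes with a trend) was applied to log2(FPKM + 0.1) where the mean reached 0.5 FPKM, with Benjamini-Hochberg adjustment over all genes tested and 0.05 as threshold. Changes of genes near 0.1 FPKM are understated on this scale. Fragments were recovered from the FPKM steps and served for depth and for voom. Fits and recovery were tested on simulated data. The changes simulated for the fits were larger than any of the 9 genes showed, so that test does not speak to calls on small changes. Replicates differed beyond sampling noise in all pairs (chi-square per degree of freedom at least 2.88). Positions are from GENCODE v44; promoter sequences are from RefSeq (GRCh38.p14) and all 35116 windows matched GRCh38 exactly. The 9 genes and the lists were chosen with earlier results of these data known. From each list the genes with the highest and lowest log2 fold change among those past the threshold at each time were named, with SLC7A11, GCLM, GCLC, TXN and MAFG in any case (1 further gene of that rule is not reported here), and for each of the 9 genes the gene most alike; CUL3, BACH1, MAFK, SQSTM1, TALDO1 and AKR1B15 were added after their values were seen. Plots used Python 3.11.15 and matplotlib 3.10.9.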

Additional observations from a re-analysis of the deposited data

Results flagged for a closer look

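For 7 of the 9 genes the change at 12 h and the change at 24 h differed from each other by the test of the difference itself, 24 h minus 12 h in the same limma fit, beside 20.1% of all genes tested (10.5% lower at 24 h). The differences were -0.56 on the log2 scale for HMOX1, -0.55 for OSGIN1, -0.45 for TXNRD1, -0.37 for AKR1B10, -0.35 for SRXN1, -0.22 for PGD and -0.11 for NQO1. All 7 are negative, whether the gene was above or below its level with Gln added. The value of NQO1 is the one that does not hold under several alternatives.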

How the results depend on the processing

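Alternatives gave 2223 values for 117 results. For the 9 genes, 500 of 513 fold changes kept their direction and their side of the threshold. AKR1B10 at 24 h against Gln added was at 0.11 with FPKM rescaled to the same total and then passed. The difference of NQO1 between 24 h and 12 h, -0.11, did not pass with no filter (-0.11), with FPKM rescaled to the same total (-0.092), with only the groups compared in the fit (-0.11) or with eBayes without a trend (-0.11), and ranged from -0.128 to -0.082 with each library left out in turn, where it passed only without replicate 1 of the 24 h group; the cause was not tested. The count of members past the threshold stayed at 9 at 12 h, lay between 8 and 9 at 24 h and between 6 and 7 between the times. Correlations of deviations were -0.14 to 0.28 between same-numbered replicates and -0.47 to 0.30 between differently numbered ones, so numbers were not used as pairs. With the replicate number as a block, the counts of members were 9, 8 and 7, as without it, and the counts of list genes were 66, 68 and 31. Among the list genes, near-zero differences changed sign: RBX1 between the times was at 0.00748 with FPKM rescaled to the same total and between -0.078 and 0.098 with a library left out, NADK2 between the times between -0.124 and 0.012, and HMOX2 at 12 h between -0.0016 and 0.049. Calls near the threshold were lost for GCLM at 12 h without Gln-added replicate 2 or 12 h replicate 3, for TXN at 12 h without Gln-added replicate 1 or 3 or 12 h replicate 2, for AKR1C2 at 24 h without Gln-added replicate 3 or 24 h replicate 2 or 3, for AKR1C3 and HMOX2 at 24 h without Gln-added replicate 1 or 3 or 24 h replicate 1, and for these except HMOX2 with no filter; AKR1C2 was also lost with the same total (-0.075) and without a trend. SLC48A1 at 24 h passed with the same total, with voom and without Gln-added replicate 2. Between the times, calls that were lost with a library left out included those of MAFG, MTHFD2 and GSS (adjusted p up to 0.0612, 0.0881 and 0.0895 from limma).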
